A study of Homo sapiens with 24 samples.

Results

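The 10 genes described here make, break down and sense prostaglandin E2: PLA2G4A, PTGS1, PTGS2, PTGES, PTGES2, PTGES3, HPGD, PTGR1, PTGER2 and PTGER4. They were chosen by name, as the rows of the raw count table whose Ensembl identifiers map to these symbols, and are 10 of 60617 genes in that table. RNA-Seq was performed on MDA686TU cells, a malignant head and neck squamous carcinoma line grown in culture. The 4 groups, of 6 libraries each, were an untreated control, EGCG (epigallocatechin gallate, the main green tea polyphenol) at 40 µM, resveratrol (a stilbene of grapes) at 15 µM, and the combination of both agents at these doses. All treatments lasted 24 h. Resveratrol was dissolved in DMSO and EGCG in water, and the sources used here do not state that the control received DMSO, so the agent and its solvent cannot be told apart. All libraries came from a single cell line, and no label says that replicates were separate cultures, so p-values measure the spread between these libraries, which may be technical.

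Prostaglandins begin with arachidonic acid, which the cytosolic phospholipase A2 encoded by PLA2G4A cuts from membrane lipids. The cyclooxygenases then turn it into prostaglandin H2: PTGS1 (COX-1) is present in most tissues, and PTGS2 (COX-2) is the inducible form, known for its raised level in many squamous carcinomas. Terminal synthases make prostaglandin E2, which acts through receptors on the cell surface and is inactivated by oxidation and then reduction.

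Library totals were 7034872 to 11735574 counts, and 15476 genes passed the filter on low counts and were tested. All 8 squamous epithelial markers had a mean FPKM (fragments scaled for transcript length and library depth, a level per length) of at least 1 in every group. Their summed level was 4590 to 4893 FPKM in control libraries and 4418 to 4995 in EGCG libraries. It was lower, at 3811 to 4061, in resveratrol libraries and at 3694 to 3996 in combination libraries. Of the 6 fibroblast markers only COL1A1 reached 1 FPKM, and the summed level of the list was 13.1 to 15.8 FPKM in control, 10.7 to 13.2 under EGCG, 15.4 to 18.4 under resveratrol and 18.0 to 20.8 in combination libraries. No immune or endothelial marker reached 1 FPKM. The part of these shifts in the results was not tested. Combination replicate 3 stood apart from its group: 453 genes were far below and 217 far above the other 5 libraries by Dixon's ratio, against at most 90 and 119 in any other library. The mitochondrial share of counts ran from 0.249% to 0.326% in replicates 1 to 3 of all groups, and was higher, 0.448% to 0.775%, in replicates 4 to 6. The labels name no batch, and values within each set of 3 are therefore given beside the called differences from control.

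The promoters of both cyclooxygenases are shown because these 2 genes are known for different control. That of PTGR1 is shown because it was the member with the largest fitted change against control. Each is the 300 bases from 250 before to 50 after a RefSeq start on GRCh38.p14, read 5′ to 3′ on the gene's strand. Capitals mark matches, on either strand, to any of 5 short patterns. The TATA box was searched as TATAAA. Part of the cyclic AMP response element was searched as TGACG. The core of the xenobiotic response element was searched as GCGTG. The core of the antioxidant response element (TGAC and GC with 3 bases between) and a loose NF-kappaB pattern (GGG and CC with 5 bases between) complete the set.
PTGS2, chr1:186680374-186680673, minus strand: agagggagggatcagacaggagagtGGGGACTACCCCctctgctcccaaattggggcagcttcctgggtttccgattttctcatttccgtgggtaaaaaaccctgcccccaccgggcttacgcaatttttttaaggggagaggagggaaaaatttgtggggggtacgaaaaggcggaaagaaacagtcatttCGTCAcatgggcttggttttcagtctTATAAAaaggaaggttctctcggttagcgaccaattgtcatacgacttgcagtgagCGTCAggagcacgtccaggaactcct
PTGS1, chr9:122370283-122370582, plus strand: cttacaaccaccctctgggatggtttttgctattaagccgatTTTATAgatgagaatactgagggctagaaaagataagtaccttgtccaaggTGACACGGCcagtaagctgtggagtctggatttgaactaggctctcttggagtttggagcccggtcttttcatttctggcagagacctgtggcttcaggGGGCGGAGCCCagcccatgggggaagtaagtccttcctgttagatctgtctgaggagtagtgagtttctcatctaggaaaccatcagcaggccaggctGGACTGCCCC
PTGR1, chr9:111599382-111599681, minus strand: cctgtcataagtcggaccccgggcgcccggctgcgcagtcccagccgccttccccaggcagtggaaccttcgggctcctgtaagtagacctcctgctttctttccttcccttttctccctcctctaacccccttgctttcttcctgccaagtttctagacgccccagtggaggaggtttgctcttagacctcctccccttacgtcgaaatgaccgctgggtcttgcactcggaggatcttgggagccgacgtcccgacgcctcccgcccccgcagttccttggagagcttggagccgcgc

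The PTGS2 window holds TATAAA 32 bases before the start, TGACG on the opposite strand 58 bases before and 24 after it, and 3 overlapping matches to the NF-kappaB pattern from 225 to 223 bases before it. The PTGS1 window, the upstream of 2 RefSeq starts, holds TATAAA on the opposite strand 208 bases before the start, the antioxidant core 157 bases before it and 3 matches to the NF-kappaB pattern, 2 of which overlap. The PTGR1 window holds none of the 5 patterns. Such short patterns are common: of 35116 promoters of this length, 11.5% hold TATAAA, 24.6% TGACG, 58.7% the NF-kappaB pattern, 13.3% the antioxidant core and 36.5% the xenobiotic core. A match is a description of letters and not a bound site. All 10 genes had an entry, with 14 windows between them. On GRCh38, PTGS2 (chr1:186671791-186680922, minus strand) and PLA2G4A (chr1:186828949-186988981, plus strand) are near neighbours on chromosome 1. PTGS1 (chr9:122370530-122395703), PTGES (chr9:129738331-129753042), PTGES2 (chr9:128120693-128128462) and PTGR1 (chr9:111549722-111599893) share chromosome 9, and the other members lie on chromosomes 4 (HPGD), 5 (PTGER4), 12 (PTGES3) and 14 (PTGER2). All 10 are annotated as protein-coding.

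In untreated cells the terminal synthases were the most abundant of the 10 genes per length, and PTGS2 and HPGD the least. Mean levels in control were 149 FPKM for PTGES3, 53.0 for PTGES2, 17.4 for PTGES, 12.9 for PTGR1, 11.1 for PTGS1, 3.07 for PLA2G4A, 2.15 for PTGER4, 0.806 for PTGER2, 0.531 for PTGS2 and 0.0310 for HPGD. Neighbours in this order did not overlap, except PTGR1 with PTGS1 and PTGER2 with PTGS2. COX-1 thus had the higher mRNA level of the cyclooxygenases in every group, and PTGS2 made up 4.56% ± 1.21 (SD, n = 6) of their summed FPKM in control and 4.66% ± 1.17 with EGCG. With resveratrol that share was 6.35% ± 1.57, and in the combination group it was 7.59% ± 0.792. PTGR1 stood above PTGES in mean level with resveratrol, where their ranges overlapped, and with the combination, where they did not.

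**Figure D1:**
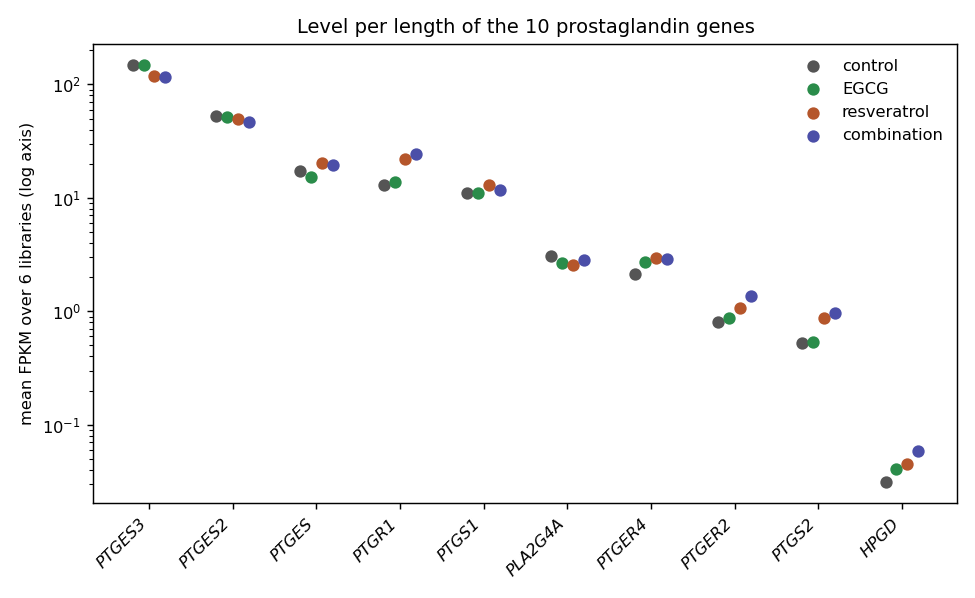
Mean FPKM of the 10 genes in each group (points, 6 libraries each) on a log axis, ordered by the level in control. PTGES3 lies at 149 FPKM in control and HPGD at 0.0310, and PTGR1 passes PTGES in mean level in the resveratrol and combination groups.

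Under the main settings all 9 members that could be tested were called changed with resveratrol, and 2 with EGCG. The resveratrol count was 8 with DESeq2 and 7 to 9 without single libraries. In replicates 4 to 6 alone the resveratrol calls of PLA2G4A, PTGES2 and PTGER2 were all lost. These are bulk measurements, in which fewer cells expressing a gene and less of its RNA per cell cannot be told apart. A gene was called changed at an adjusted p under 0.1 with p under 0.05 in edgeR's quasi-likelihood test. With resveratrol 6 members rose and 3 fell, where 56.9% of all tested genes were called (28.9% up and 28.0% down), so being called was common in this comparison. With the combination 5 rose and 2 fell, against 59.8% of all tested genes (29.9% up and 29.9% down). With EGCG 1 rose and 1 fell, against 1.76% of all tested genes (0.905% up and 0.859% down). Resveratrol and control libraries did not overlap for 6 members, as for 31.0% of all tested genes, and combination and control libraries did not overlap for 5, as for 31.9%. The 9 members had a median log2 fold change of 0.22 under resveratrol, 0.15 under the combination and -0.01 under EGCG, and that of all tested genes was 0.00 in each. Taken without sign, the median was 0.32 under resveratrol and 0.36 under the combination, beside 0.20 and 0.22 over all tested genes. The 3 comparisons share the control libraries.

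**Figure D2:**
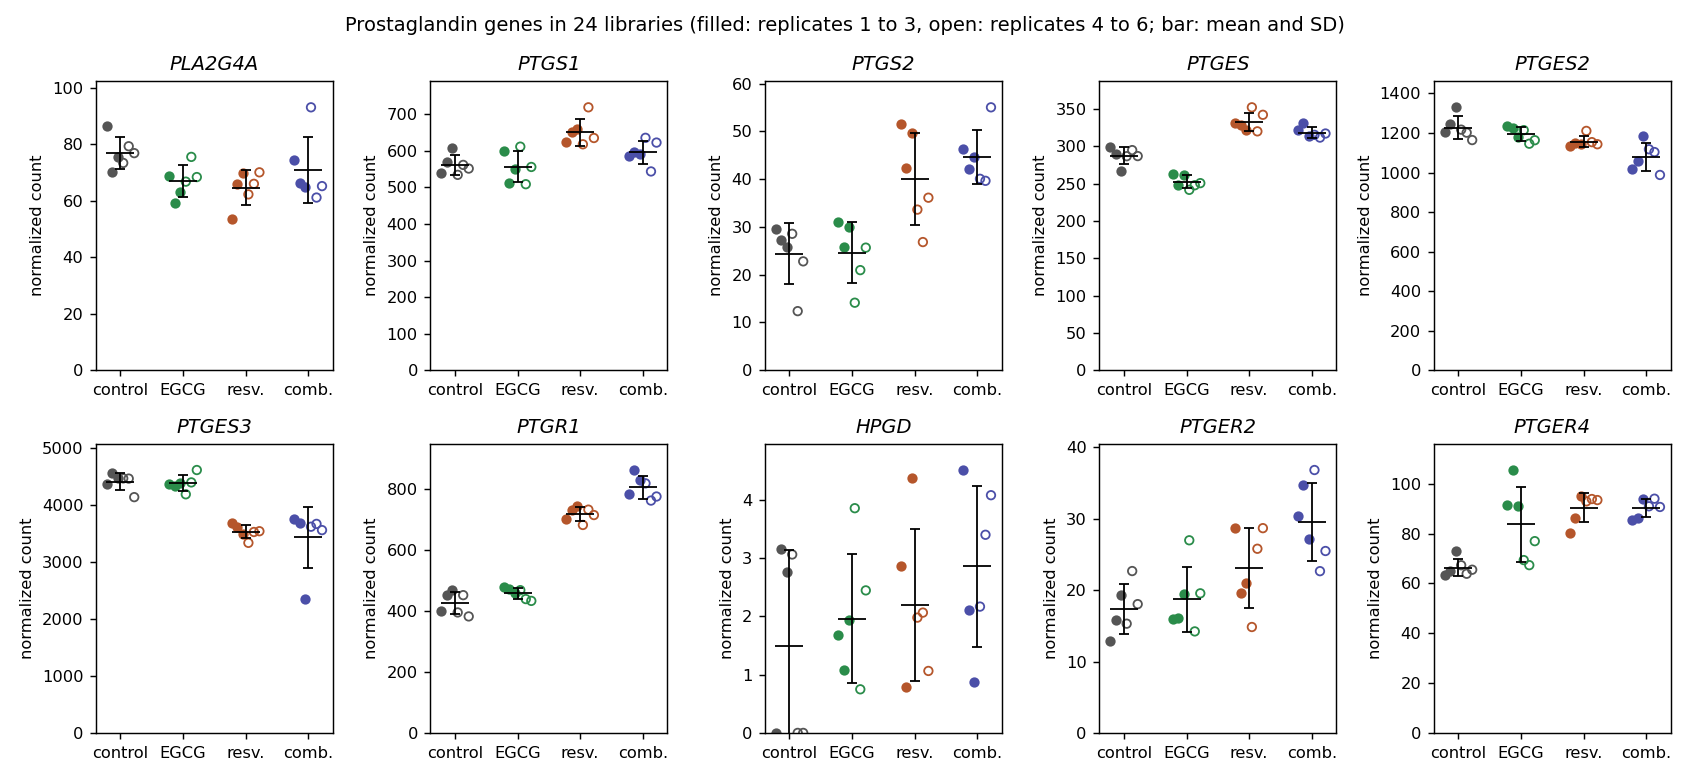
Normalized counts (counts scaled for library size) of each gene in the 24 libraries, with the mean and SD of each group as a bar, which is not drawn below 0. Filled points are replicates 1 to 3 and open points replicates 4 to 6. PTGR1 lies at 382 to 468 in control and 761 to 862 in the combination, and combination replicate 3 lies alone at 2353 for PTGES3.

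PLA2G4A, the enzyme that releases arachidonic acid, fell with resveratrol. Its lowest, median and highest normalized counts were 70.4, 76.3 and 86.6 in control and 59.2, 67.6 and 75.6 under EGCG. They were 53.5, 66.0 and 70.1 under resveratrol and 61.2, 65.8 and 93.2 under the combination. All resveratrol libraries lay below control, and the combination range was widened by replicate 4 at 93.2. PLA2G4A fell to 0.840 of control with resveratrol (log2 fold change -0.25, SE 0.0952, adjusted p = 0.0259), a call that was lost with library size as the only scaling (-0.16, adjusted p = 0.151) and in replicates 4 to 6 alone (-0.21, adjusted p = 0.266, beside -0.29 in replicates 1 to 3). The values were -0.19 with EGCG (adjusted p = 0.494) and -0.12 with the combination (adjusted p = 0.277). Without combination replicate 4 the combination value was -0.22 and passed the threshold (adjusted p = 0.0657).

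The cyclooxygenases both rose with resveratrol, and the fitted value was larger for PTGS2, on fewer counts. PTGS2 had low, median and high normalized counts of 12.4, 26.6 and 29.5 in control and 14.1, 25.8 and 31.1 under EGCG. They were 26.8, 39.3 and 51.6 under resveratrol and 39.7, 43.4 and 55.0 under the combination. The combination libraries all lay above the control libraries, the lowest resveratrol library lay within the control range, and the EGCG range covered most of it. PTGS2 rose 1.65-fold with resveratrol (0.73, SE 0.172, adjusted p = 0.00054) and 1.83-fold with the combination (0.87, SE 0.171, adjusted p = 4.84e-05). EGCG gave a log2 fold change of 0.03, with an interval of -0.36 to 0.42 at 11 to 37 raw counts per EGCG library. Within replicates 1 to 3 and 4 to 6, the resveratrol value was 0.80 and 0.59, and the combination value 0.69 and 1.08. The non-coding PACERR, which overlaps the PTGS2 start on the opposite strand, had at most 1 count in a library.

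PTGS1 rose with resveratrol but was not called with the combination. Its lowest, median and highest normalized counts were 535, 557 and 608 in control and 509, 553 and 612 under EGCG. They were 618, 644 and 719 under resveratrol and 544, 594 and 636 under the combination. Only the resveratrol libraries lay wholly above control. PTGS1 rose 1.16-fold with resveratrol (0.22, SE 0.0467, adjusted p = 0.00016), with values of 0.18 for replicates 1 to 3 and 0.26 for the other set. With the combination the value was 0.09 (SE 0.0476, adjusted p = 0.102), which narrowly missed the threshold. That value passed with library size as the only scaling (0.17, adjusted p = 0.00193), with at least 10 counts required in every library (0.12, adjusted p = 0.0335), with only the groups compared (0.11, adjusted p = 0.0406), and without control replicate 3, control replicate 5 or combination replicate 5 (adjusted p = 0.0452, 0.069 and 0.0431). EGCG gave a log2 fold change of -0.01 (interval -0.11 to 0.08).

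The terminal synthases split by direction under resveratrol. PTGES, the membrane-bound inducible synthase usually coupled to COX-2, had lowest, median and highest normalized counts of 267, 288 and 299 in control and 242, 249 and 263 under EGCG. They were 320, 330 and 352 under resveratrol and 312, 316 and 331 under the combination. All EGCG libraries lay below and all resveratrol and combination libraries above the control range. PTGES rose 1.16-fold with resveratrol (0.21, SE 0.0427, adjusted p = 6.24e-05) and 1.11-fold with the combination (0.15, SE 0.0435, adjusted p = 0.00416). It fell with EGCG to 0.880 of control (-0.18, SE 0.0448, adjusted p = 0.0288), the only member whose EGCG and control libraries did not overlap, as 1.58% of all tested genes did. The EGCG call was lost when every gene with a count was tested (adjusted p = 0.208) and within each set of 3 replicates (-0.14 and -0.23, adjusted p = 0.715 and 0.267). The resveratrol value was 0.21 in replicates 1 to 3 and 0.23 in the other set. The combination value was 0.18 in replicates 1 to 3, and its call was lost in replicates 4 to 6 (0.12, adjusted p = 0.166).

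PTGES3, the cytosolic synthase also known as the HSP90 co-chaperone p23, was the most abundant member and fell. Its lowest, median and highest normalized counts were 4136, 4463 and 4553 in control and 4186, 4375 and 4612 under EGCG. They were 3334, 3531 and 3680 under resveratrol and 2353, 3642 and 3746 under the combination. All resveratrol and combination libraries lay below control. It fell to 0.803 of control with resveratrol (-0.32, SE 0.0594, adjusted p = 2.69e-05) and to 0.780 with the combination (-0.36, SE 0.0596, adjusted p = 3.44e-06). Without combination replicate 3, which holds the lone value of 2353, the combination value was -0.27 (SE 0.0290, adjusted p = 4.72e-10). Replicates 1 to 3 gave -0.31 under resveratrol and -0.45 under the combination, and replicates 4 to 6 gave -0.33 and -0.27. In combination replicate 3 the processed pseudogene PTGES3P1 had 215 normalized counts, inside its group's range of 208 to 250, and PTGES3P3 had 40.3, the lowest of its group. Both pseudogenes were also called down with resveratrol (-0.28 and -0.25) and with the combination (-0.33 and -0.42), and reads of near-identical copies may not be fully separated. Summing PTGES3 with its 5 annotated processed pseudogenes left both calls in place.

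PTGES2, another membrane-associated synthase, fell with the combination and, by a small margin, with resveratrol. Its lowest, median and highest normalized counts were 1164, 1211 and 1330 in control and 1146, 1198 and 1237 under EGCG. They were 1136, 1146 and 1211 under resveratrol and 988, 1080 and 1183 under the combination. The combination range overlapped control at its upper end, where combination replicate 3 lay. PTGES2 fell with the combination to 0.881 of control (-0.18, SE 0.0381, adjusted p = 1e-04), and its log2 value was -0.21 without that replicate. The fall with resveratrol was -0.08 (SE 0.0376, adjusted p = 0.0636). It was lost without control replicates 2, 3 or 5 or resveratrol replicates 1, 2, 3 or 6 (adjusted p up to 0.197) and with at least 10 counts required in every library (-0.06, adjusted p = 0.183), and turned to 0.01 with library size as the only scaling. Replicates 1 to 3 gave -0.13 under resveratrol and -0.20 under the combination. Replicates 4 to 6 gave -0.03, where the resveratrol call was lost (adjusted p = 0.655), and -0.16. PTGES made up 7.96% ± 0.440 of the summed FPKM of the 3 synthases in control and 7.13% ± 0.210 under EGCG (SD, n = 6). Under resveratrol its share was 10.7% ± 0.454, and under the combination 10.7% ± 1.03. The combination shares ran from 9.93% to 12.7%, and the highest was that of combination replicate 3, which was low in PTGES3.

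PTGR1 had the largest fitted change of the members against control, with intervals that overlapped those of PTGS2. It encodes prostaglandin reductase 1, which reduces oxidized prostaglandins and also acts on leukotriene B4. Its lowest, median and highest normalized counts were 382, 426 and 468 in control and 433, 463 and 478 under EGCG. They were 682, 722 and 744 under resveratrol and 761, 801 and 862 under the combination. Every resveratrol library lay above every control library, and every combination library above every resveratrol library. PTGR1 rose 1.69-fold with resveratrol (log2 fold change 0.76, SE 0.0450, adjusted p = 1.36e-16) and 1.90-fold with the combination (0.93, SE 0.0449, adjusted p = 3.33e-19). Under resveratrol, replicates 1 to 3 gave 0.73 and replicates 4 to 6 gave 0.79, and under the combination they gave 0.92 and 0.94. EGCG alone gave a log2 fold change of 0.11 (adjusted p = 0.375), with an interval of 0.01 to 0.21. The study lists PTGR1 among xenobiotic metabolism genes picked on these samples, so its direction is not independent evidence. ZNF483 overlaps it on the opposite strand, at a mean of 11.7 normalized counts.

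HPGD, the dehydrogenase that carries out the oxidation before this step, was near the limit of detection. Its raw counts ran from 0 to 5 per library. The sums were 9 in control, 11 for EGCG, 14 for resveratrol and 16 for the combination, and 3 control libraries had no count. It did not pass the filter. In a two-sided exact permutation test of mean log2 CPM (counts scaled to the library total, prior count 2), the difference from control was 0.28 with EGCG (p = 0.396), 0.36 with resveratrol (p = 0.305) and 0.57 with the combination (p = 0.113). A difference was not detectable at this depth.

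The receptors PTGER2 (EP2) and PTGER4 (EP4), which both raise cyclic AMP when prostaglandin E2 binds, were higher with the combination. PTGER4 had lowest, median and highest normalized counts of 63.6, 65.3 and 72.9 in control and 67.4, 84.1 and 106 under EGCG. They were 80.2, 93.2 and 95.2 under resveratrol and 85.7, 90.9 and 94.0 under the combination. All resveratrol and combination libraries lay above control, and the EGCG libraries were spread from within the control range to above all others. PTGER4 rose 1.36-fold with resveratrol (0.44, SE 0.0920, adjusted p = 0.000106) and 1.36-fold with the combination (0.45, SE 0.0937, adjusted p = 0.000113). These values were 0.38 and 0.51, and 0.41 and 0.49, in replicates 1 to 3 and 4 to 6.

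PTGER4 was also the only member called up with EGCG (0.33, SE 0.0943, adjusted p = 0.0749). The EGCG libraries of replicates 1 to 3 held 91.2 to 106 normalized counts, and the other 3 held 67.4 to 77.0. The log2 fold change was 0.51 (adjusted p = 0.0727) in the former set and 0.11 (adjusted p = 0.933) in the latter. The quasi-likelihood test of the difference between the sets gave -0.41 (latter minus former, unadjusted p = 0.035) and an adjusted p of 1. In that test 0 of 15476 genes had an adjusted p under 0.1 with EGCG. The call was lost in 13 of 24 alternative runs. Among these were DESeq2 (adjusted p = 0.135), every gene with a count tested (adjusted p = 0.168) and only the groups compared (adjusted p = 0.169). It was also lost without control replicates 1, 2, 4, 5 or 6 or EGCG replicates 1, 2 or 3 (0.26 to 0.34, adjusted p up to 0.28). TTC33, which spans PTGER4 on the opposite strand, had a mean of 79.9 normalized counts and log2 fold changes of 0.17, 0.19 and 0.26 under EGCG, resveratrol and the combination, of which the last was called (adjusted p = 0.0293). Whether counting used the strand is not given in the sources used here, so the 2 genes' reads may not be fully separated.

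PTGER2 was low throughout, at 14 to 34 raw counts per library. Its lowest, median and highest normalized counts were 12.9, 16.9 and 22.7 in control and 14.2, 17.8 and 27.0 under EGCG. They were 14.8, 23.4 and 28.7 under resveratrol and 22.7, 28.8 and 36.8 under the combination. Every pair of groups overlapped, control and combination only where the highest control library met the lowest combination library. PTGER2 rose 1.70-fold with the combination (0.77, SE 0.179, adjusted p = 0.000393). The rise with resveratrol was 0.40 (SE 0.185, adjusted p = 0.0652), and it was lost with DESeq2 (adjusted p = 0.11) and without control replicates 1, 2 or 4 or resveratrol replicates 1, 5 or 6 (adjusted p up to 0.158), and when every gene with a count was tested (adjusted p = 0.154). Replicates 1 to 3 gave 0.52 under resveratrol and 0.94 under the combination. Replicates 4 to 6 gave 0.30, where the resveratrol call was lost (adjusted p = 0.434), and 0.60. With EGCG the value was 0.07 (interval -0.33 to 0.47).

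**Figure D3:**
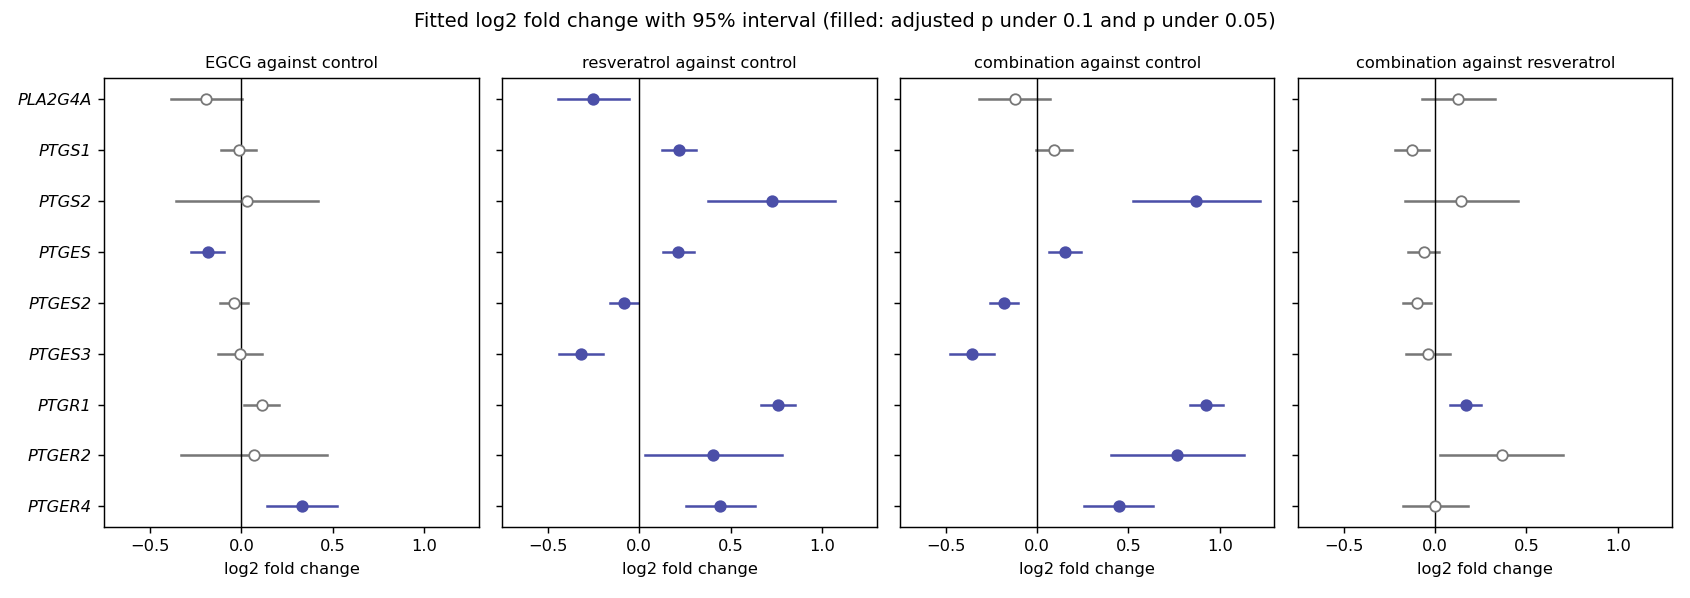
Log2 fold change of the 9 tested members with 95% intervals in 4 comparisons, with filled points for called genes. PTGR1 lies at 0.76 with resveratrol, 0.93 with the combination and 0.17 for the combination against resveratrol, while PTGES3 lies at -0.32 and -0.36 in the first pair.

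Adding EGCG to resveratrol changed 1 member by the test. PTGR1 was 1.12-fold higher with the combination than with resveratrol alone (0.17, SE 0.0423, adjusted p = 0.014), where 7.86% of all tested genes were called (4.01% up and 3.86% down), and it was the only member whose 2 groups did not overlap, as 3.20% of all tested genes did. Its value was 0.15 in replicates 4 to 6 alone, where the call was lost (adjusted p = 0.211). PTGS1 was lower by a value that missed the threshold (-0.13, SE 0.0467, adjusted p = 0.114), and PTGES2 likewise (-0.10, SE 0.0381, adjusted p = 0.134). PTGES2 passed without combination replicate 3 (-0.13, adjusted p = 0.0267), and PTGS1 without resveratrol replicate 4 (adjusted p = 0.0945) or combination replicate 4 (adjusted p = 0.0765), with library size as the only scaling (adjusted p = 0.0913) and with a term for replicates 1 to 3 against 4 to 6 (adjusted p = 0.0977). PTGER2 was 0.36 higher (adjusted p = 0.232), with an interval of 0.03 to 0.70. For PTGS2 the interval of the difference was -0.17 to 0.45, for PTGES -0.15 to 0.02 and for PTGER4 -0.18 to 0.18. The value of PTGES3 turned from -0.04 to 0.05 without combination replicate 3.

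The interaction of the agents, that is the departure of the combination from the sum of the single effects on the log2 scale, was called for 0 of 9 members by edgeR and for 0.265% of all tested genes. At an unadjusted p under 0.05 there were 2 members, PTGER4 (-0.33, adjusted p = 0.479) and PLA2G4A (0.32, adjusted p = 0.555). The share of all tested genes under that looser rule was not counted, so these 2 cannot be set against it. By DESeq2 the count was also 0, but PTGS2 and PTGER2 received no adjusted p there. Against EGCG alone the combination raised 5 members and lowered 2, where 57.8% of all tested genes were called (28.7% up and 29.1% down). PTGR1 was 0.82 higher, PTGS2 0.84, PTGER2 0.70 and PTGES 0.33, PTGES3 was at -0.35 and PTGES2 at -0.14. PTGES2 lost its call with library size as the only scaling (-0.07, adjusted p = 0.121), and PTGER2 in replicates 4 to 6 alone (0.56, adjusted p = 0.101). PTGER4 was 0.11 higher (adjusted p = 0.302) and passed without EGCG replicate 2 (0.20, adjusted p = 0.0638) and with library size as the only scaling (0.19, adjusted p = 0.0757). The PTGER4 value was -0.10 in replicates 1 to 3 (adjusted p = 0.538), and in replicates 4 to 6 it was 0.38 and passed (adjusted p = 0.0163). PTGS1 was 0.11 higher (adjusted p = 0.0624), a call lost without EGCG replicates 3 or 5 or combination replicates 4 or 6 (adjusted p up to 0.192), when every gene with a count was tested (adjusted p = 0.129), with only the groups compared (adjusted p = 0.0905) and within each set of 3 (adjusted p = 0.266 and 0.141).

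Of 43 other genes of eicosanoid supply, synthesis, transport and reception, 21 could be tested, and they moved with resveratrol in both directions. With resveratrol 9 rose and 6 fell, and with the combination 9 rose and 7 fell, beside the 56.9% and 59.8% of all tested genes given above. With EGCG edgeR called 0 of 21, and 1 at an unadjusted p under 0.05, a rule for which the share of all tested genes was not counted. The median log2 fold change of the 21 was 0.00 with resveratrol and 0.01 with the combination. Of the 22 not tested, 4 had no count in any library, and the prostaglandin receptors PTGER1 and PTGER3 had at most 4 and 2 counts in a library.

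The aldo-keto reductase AKR1C3, a prostaglandin F synthase, had the largest rise of this list, from 68.3 ± 11.0 normalized counts in control to 249 ± 19.9 under resveratrol and 255 ± 40.7 under the combination (SD, n = 6). Its log2 fold changes were 1.88 (adjusted p = 4.02e-17) and 1.91 (adjusted p = 1.91e-17), and it was one that the study itself singled out on these samples. It also has near-identical paralogs among the AKR1C genes, so its count is uncertain. AKR1B1, an aldose reductase also known for prostaglandin F synthase activity, rose by 0.33 and 0.32 on the log2 scale. The fatty acid desaturases that build arachidonic acid rose as well, FADS2 by 0.99 and 1.02 and FADS1 by 0.73 and 0.74, and FADS2 is in a list the study drew from these samples.

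Phospholipases and transporters diverged. The calcium-independent phospholipase A2 PLA2G6 rose by 0.78 and 0.91 with resveratrol and the combination, from 30.2 ± 7.15 normalized counts in control. PLA2G4E, a relative of PLA2G4A, had 21.7 ± 3.02 normalized counts in control, 11.2 ± 4.19 under resveratrol and 11.7 ± 1.67 under the combination (SD, n = 6), with log2 fold changes of -0.94 and -0.87. ABCC4, an exporter of prostaglandins, changed by -0.66 and -0.73, and the prostaglandin importer SLCO2A1 rose by 1.03 and 1.00 at 5.86 ± 2.38 normalized counts in control. The epidermal lipoxygenases ALOX12B and ALOXE3 changed by -0.42 and -0.37 with resveratrol and by -0.78 and -0.23 with the combination. The ALOXE3 value with the combination lay near the threshold (adjusted p = 0.0811), with an interval of -0.46 to -0.0018. Between the combination and resveratrol, ANXA1, an annexin known to restrain phospholipase A2, was 0.09 higher (adjusted p = 0.0925) and the reductase PTGR3 was at -0.22 (adjusted p = 0.0759). Both calls were lost when every gene with a count was tested, and at least 1 was lost without any single library of either group other than combination replicate 4.

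**Figure D4:**
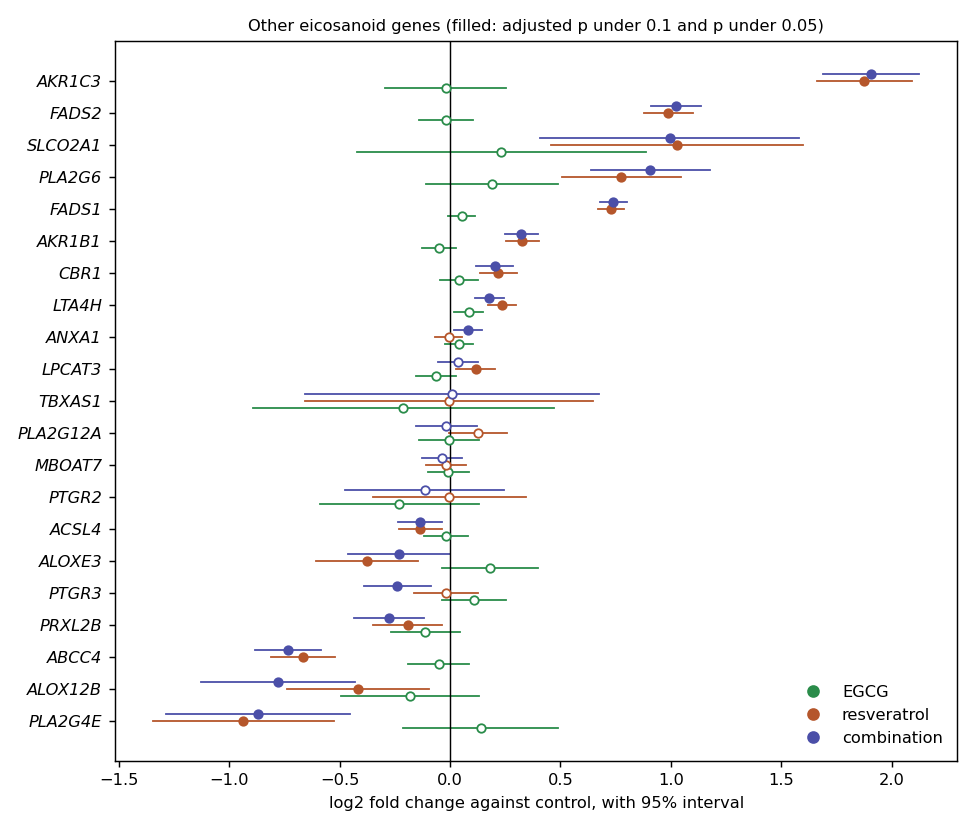
Log2 fold change against control with 95% intervals for the 21 tested genes of the wider eicosanoid list, in the EGCG, resveratrol and combination groups, with filled points for called genes. AKR1C3 lies at 1.88 and 1.91 and PLA2G4E at -0.94 and -0.87 in the resveratrol and combination groups, and no EGCG point is filled.

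The genes whose log2 CPM followed the cyclooxygenases most closely over the 24 libraries were different for each. For PTGS2 they were CHMP4C (Pearson's r = 0.879), ULBP1 (0.858), SOX9 (0.856), DPYSL3 (0.856) and GADD45A (0.854). For PTGS1 they were ATF7IP2 (0.832), DNAJA4 (0.792), TRPM4 (0.787), TECPR2 (0.784) and SLC16A5 (0.779). These values describe libraries that share treatment groups and were picked as the highest of all tested genes.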

How the data were processed

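Poly(A) RNA was measured in 24 libraries of MDA686TU cells. Per the labels and the study's methods, total RNA was extracted with RNeasy, made into TruSeq stranded libraries and sequenced as read pairs. Per the labels the authors used bcl2fastq 2.17.1.14, Trimmomatic 0.36, FastQC 0.11.5, HISAT2 2.0.4 on GRCh38, SAMtools 1.3.1 and DESeq2 1.20.0. The counting program, annotation release and strand setting are not given in the sources used here. The authors deposited raw counts per gene, normalized counts (a signal: the raw counts over 1 size factor per library, 0.778 to 1.34) and FPKM values, which held a constant ratio to the normalized counts in each gene.

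The raw counts were fitted over all groups with edgeR 4.0.16 in R 4.3.3 (filterByExpr, TMM, quasi-likelihood test, Benjamini-Hochberg over 15476 genes). Normalized counts and FPKM are shown as deposited. SE was the absolute log2 fold change over the root of F, and 95% intervals were drawn from this SE. For some values, those of PTGES among them, the p-value of the test was larger than this SE gives. Their intervals may therefore be too narrow. HPGD was tested by exact permutation (SciPy 1.17.1). The fit was tested on simulated data. Symbols came from GENCODE, and promoters from RefSeq tables. At depths of 7034872 to 11735574 counts, HPGD, PTGER2 and PTGS2, with the fewest counts, were measured least precisely.

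Samples were grouped by their labels. The text names all 10 members, up to 10 called genes of the wider list with the largest change per comparison, untested ones, genes that overlap a member or are its pseudogenes, marker genes and the 5 genes most alike to each cyclooxygenase. Members and lists were chosen with earlier results of these data known. Alternatives were DESeq2 1.42.0, its size factors, library size alone, other filters, thresholds and groups, the replicate block, each set of 3 replicates and leaving out each library. The set interaction and the pseudogene sum were chosen after seeing the data.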

Additional observations from a re-analysis of the deposited data

Results flagged for a closer look

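In each of the 40 sets of 6 libraries (10 genes in 4 groups), the gap of the highest or lowest library to its neighbour was set against the whole range, by Dixon's ratio at its 95% critical value. Chance flags about 1 in 20 sets, and 2 of 40 were found here. PTGES3 in combination replicate 3 had 2353 normalized counts against 3558 to 3746 in the other 5 libraries (ratio 0.865). PTGES2 in resveratrol replicate 4 had 1211 normalized counts against 1136 to 1154 in the others (ratio 0.759).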

How the results depend on the processing

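Of 26 member calls over the 6 comparisons, 16 kept direction and call in every alternative run and 10 were lost in at least 1. PTGR1, PTGS2 and PTGES3 kept their calls throughout with resveratrol or the combination against control and with the combination against EGCG. The resveratrol count of 9 members was 8 with DESeq2, 7 with library size alone and 7 to 9 without single libraries. PLA2G4A, PTGES2 and PTGER2 all lost their resveratrol calls in replicates 4 to 6 alone (adjusted p = 0.266, 0.655 and 0.434). At an adjusted p under 0.05, PTGES2 and PTGER2 lost their resveratrol calls. The EGCG count of 2 members was 1 with DESeq2, at an adjusted p under 0.05, with only the groups compared and in replicates 1 to 3, 0 with every gene tested and in replicates 4 to 6, and 1 to 2 without single libraries. For the combination against resveratrol, the count of 1 was 2 with library size alone or a term for the set of replicates, 4 at unadjusted p, 0 in replicates 4 to 6, and 1 to 2 without single libraries. The interaction count of 0 was 2 at unadjusted p. In the wider list, the EGCG count of 0 was 1 at unadjusted p. For the counts at unadjusted p, the share of all tested genes was not counted. Its count of 2 for the combination against resveratrol was 1 with library size alone or only the groups compared, 0 with every gene tested, at an adjusted p under 0.05 or in either set of replicates, and 0 to 2 without single libraries. The cause of these changes was not tested.

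Same-numbered libraries of different groups correlated at -0.01 to 0.13, not over 0.1 in every pair, and no label ties a number to a shared culture or day, so the numbers were not taken to pair samples. As a hint from the data towards shared numbers or sets, 11 of 24 libraries correlated best with their own number, where equal chances for the 6 numbers give 4. Those chances were not equal. The median correlation was 0.049 for the same number, 0.028 for other numbers of the same set of 3 and -0.041 for the other set. The comparison with 4 therefore cannot tell a shared number from a shared set. With a replicate block the combination against resveratrol gave 3 members (PTGR1, PTGES2 at -0.10 with adjusted p = 0.068, and PTGS1 at -0.13 with adjusted p = 0.0973) in place of 1, and no other count of calls moved by over 1.5 times.

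Signs turned for 12 of 54 member values, of which 1 was a call: PTGES2 with resveratrol was 0.0051 with library size alone. PTGER4 in the combination against resveratrol was -0.0042 with library size alone, -0.00067 with only the groups compared and -0.025 in replicates 4 to 6. In replicates 1 to 3, PTGS2 was -0.11 in the combination against resveratrol and -0.19 in the interaction, and PTGER4 was -0.10 against EGCG. In replicates 4 to 6 with EGCG, PTGS1 was 0.0085, PTGS2 -0.060 and PTGES3 0.014, and PTGES3 was 0.060 in the combination against resveratrol and 0.046 in the interaction. Without single libraries, EGCG values ran from -0.041 to 0.014 for PTGS1, -0.099 to 0.122 for PTGS2, -0.026 to 0.0045 for PTGES3 and -0.040 to 0.155 for PTGER2. In the combination against resveratrol PTGER4 ran from -0.030 to 0.019 and PTGES3 from -0.067 to 0.047, PTGES3 in the interaction from -0.059 to 0.055, and PLA2G4A in the combination against EGCG from -0.023 to 0.114. Library size alone moved the median of all genes by 0.09 with resveratrol and 0.08 with the combination. With a prior count of 0.5, the HPGD differences from control were 0.79, 0.89 and 1.23 with EGCG, resveratrol and the combination (exact permutation p = 0.262, 0.216 and 0.106). Depth limits HPGD, PTGER2 and PTGS2.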
